A study of Mus musculus with 45 samples.

Results

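The genes described here are 10 genes that mark macrophages in the mouse heart, namely C1qa, C1qb, C1qc, Csf1r, Mrc1, Lyz2, Ctss, Cd68, Tyrobp and Aif1. They were taken as a list of gene symbols, chosen with earlier results of these data known. Shares of all genes set beside their counts are therefore description and not an independent test. All 10 were found among the 18193 genes that had a probe set naming 1 gene on the arrays. Each gene was read from the probe set with its highest mean over 45 arrays. Values are log2 expression levels made with RMA (robust multi-array average), on which a difference of 1 is a 2-fold difference, and levels of different genes were not set against each other because each probe set has its own background.

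Total RNA had been measured on 45 arrays, 3 in each of 15 groups. The first group was the R1 embryonic stem cell line (ESC), and all other groups were wild-type CD1 mice, staged by form and somite number. At embryonic day (E) 7.5 the whole embryo was taken and at E8.5 the heart tube. The left ventricle and the right ventricle were sampled apart at 6 later times, which were E9.5, E12.5 and E14.5, then E18.5, then 3 days after birth (D3), and last the adult, whose age in weeks the labels do not give. For 1 replicate, RNA came from 30 to 50 pooled embryos or hearts before E12.5, from 10 to 20 pooled hearts for the E12.5 and the E14.5 samples, from 3 to 5 at E18.5, and from a single heart, frozen and pulverised, at D3 and in the adult, so that the spread between replicates of later groups is a spread between single hearts. No gene was altered and no agent was given in any group. All samples were bulk tissue, in which more macrophages and more RNA of a gene per macrophage cannot be told apart. Up to E9.5 the material taken changed at every step, so a change of tissue and a change of stage cannot be told apart there. The stem cell line, a culture of 1 cell type, serves as the sample without heart tissue, and its levels are given as values and not as a floor.

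Macrophages are phagocytes of the innate immune system that live in nearly every tissue. In the mouse heart they are known to enter before birth from progenitors of the yolk sac and fetal liver, to persist by local division, and to be joined after birth by cells derived from blood monocytes. The receptor Csf1r and its ligands Csf1 and Il34 keep them alive, the transcription factor PU.1, encoded by Spi1, sets up their gene programme, and they clear dying cells and debris, release growth factors and make much of the complement protein C1q.

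Reference sequences in front of 5 of the genes are shown because a purine-rich core, the letters GAGGAA or their reverse complement TTCCTC, is the textbook core of PU.1 sites, and the promoters of the 10 genes could be compared for it. RefSeq (build GRCm38.p6) gave a promoter for 7 of the 10 genes. The 200 bases before the transcription start are given 5' to 3' on the strand of the gene, with GAGGAA or TTCCTC in capitals: C1qb from chr4:136886201-136886400 (minus strand), C1qc from chr4:136892915-136893114 (minus strand), Ctss from chr3:95526586-95526785 (plus strand), Mrc1 from chr2:14229214-14229413 (plus strand) and Lyz2 from chr10:117282273-117282472 (minus strand).
C1qb: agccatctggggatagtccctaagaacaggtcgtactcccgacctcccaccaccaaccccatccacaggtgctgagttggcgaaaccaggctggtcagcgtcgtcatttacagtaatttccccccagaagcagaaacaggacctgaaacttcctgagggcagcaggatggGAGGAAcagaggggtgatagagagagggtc
C1qc: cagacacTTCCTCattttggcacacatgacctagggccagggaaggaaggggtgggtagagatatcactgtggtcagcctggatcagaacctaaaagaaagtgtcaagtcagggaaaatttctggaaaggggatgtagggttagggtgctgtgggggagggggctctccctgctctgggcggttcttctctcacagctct
Ctss: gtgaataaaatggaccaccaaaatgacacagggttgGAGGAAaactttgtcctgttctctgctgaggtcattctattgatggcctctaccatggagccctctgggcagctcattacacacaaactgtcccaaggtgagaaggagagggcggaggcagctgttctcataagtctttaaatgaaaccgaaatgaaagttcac
Mrc1: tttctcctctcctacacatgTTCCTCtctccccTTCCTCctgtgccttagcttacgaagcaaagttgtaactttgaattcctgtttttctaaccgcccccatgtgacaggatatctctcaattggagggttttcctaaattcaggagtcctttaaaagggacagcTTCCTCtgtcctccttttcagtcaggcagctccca
Lyz2: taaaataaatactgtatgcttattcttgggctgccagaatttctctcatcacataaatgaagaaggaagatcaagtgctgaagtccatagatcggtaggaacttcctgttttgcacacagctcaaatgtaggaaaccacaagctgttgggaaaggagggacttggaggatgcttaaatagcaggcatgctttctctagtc

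Within 250 bases before the start, GAGGAA or TTCCTC occurred in 6 of these 7 promoters, those of Mrc1, Ctss, C1qb, C1qc, Cd68 and Aif1, and in 23.3% of all 32851 promoters of that length. Lyz2 had neither in that window. The ETS-type letters AGGAAG (or CTTCCT) occurred in 4 of 7 against 29.5%, and they can overlap GAGGAA. The longer letters GGAAGTG (or CACTTCC) occurred in 2 of 7 against 8.55%. CCACAG (or CTGTGG) was found in 3 of 7 against 22.0%, and TATAAA (or TTTATA) in 1 of 7 (Ctss) against 12.4%. The letters TGTGGT (or ACCACA), the core of RUNX sites, occurred in 2 of 7 against 14%, TTNCNNAA (or TTNNGNAA), a loose C/EBP half-site, in 4 of 7 against 36.8%, and TGANTCA, the AP-1 type, in 1 of 7 (Cd68) against 6.75%. CACGTG, the E-box read by the lysosomal regulator Tfeb, occurred in 0 of 7 against 6.02%. These are matches of letters in a short window, counted on both strands.

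Heart muscle markers were checked against the labelled tissue. The mean of 11 cardiomyocyte genes was 5.77 to 6.03 in ESC and at E7.5 and between 12.62 and 13.84 on every array from E8.5 on. Genes of other tissues stood out on single arrays. A list of 10 yolk sac and visceral endoderm genes, several of which the liver also makes, was over 1.5 log2 units above the other replicates in E8.5 replicate 2 (by 2.70), E14.5 left replicate 2 (by 1.87) and E18.5 left replicate 2 (by 2.13), red cell genes in E14.5 left replicate 2 (by 1.61), and 5 adipocyte genes in adult right replicate 2 (by 2.20). Smaller excesses, over 0.9, were found in E7.5 replicate 2 (trophoblast and decidua genes by 1.34, red cell genes by 1.33), E14.5 right replicate 1 (yolk sac genes by 1.42), adult left replicate 2 (adipocyte genes by 1.33), E9.5 left replicate 1 (trophoblast genes by 1.02, yolk sac genes by 1.08), E9.5 right replicate 1 (trophoblast genes by 1.06) and, for neutrophil genes, E18.5 left replicate 2 (by 0.93). All 10 macrophage genes were above their group mean on E14.5 left replicate 2, E14.5 right replicate 1 and adult right replicate 2, as they were on E12.5 right replicate 3 and E18.5 left replicate 1, on which none of these lists stood out. What these arrays change is given beside the results concerned.

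**Figure D1:**
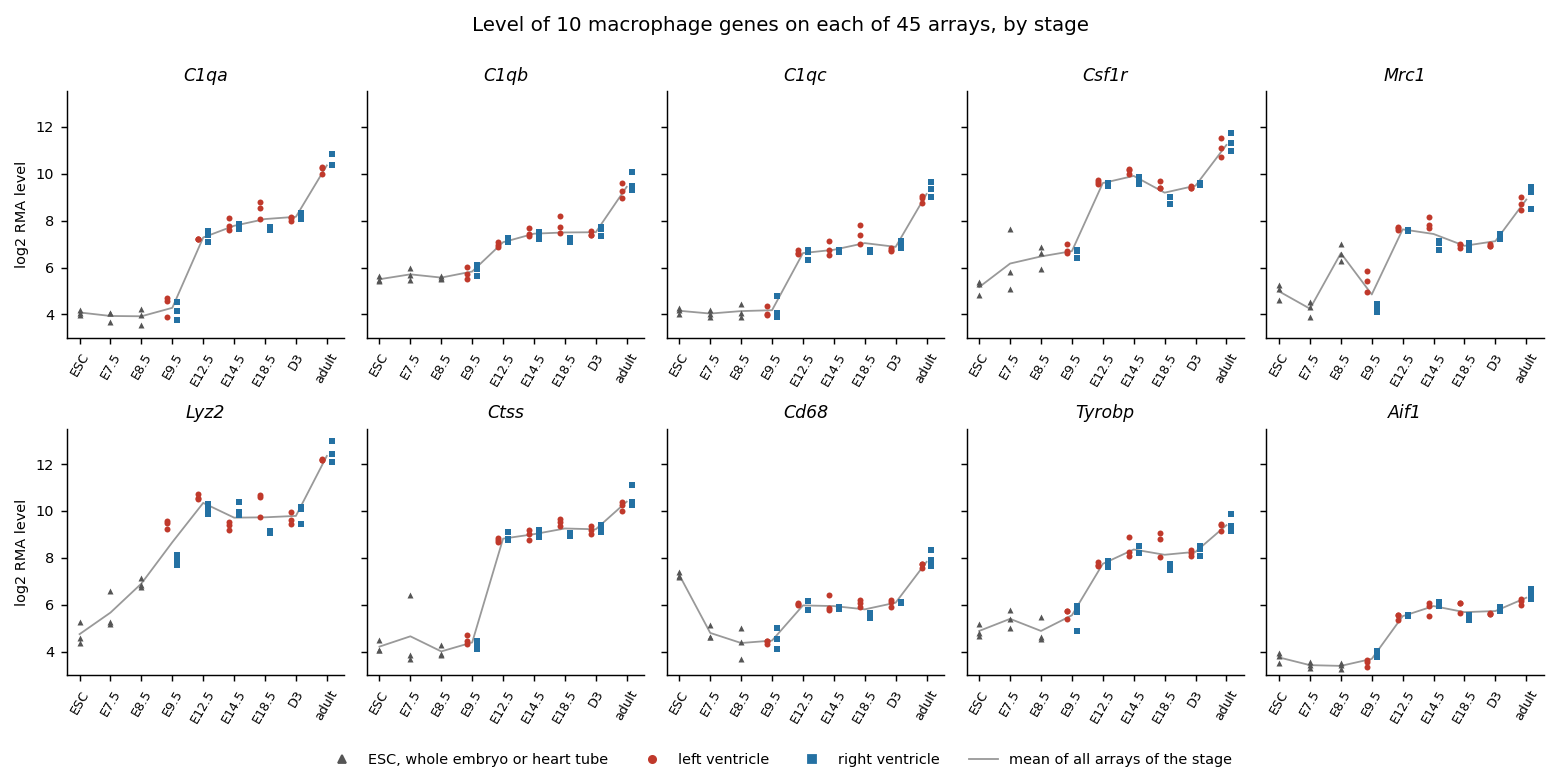
Log2 RMA level of each of the 10 macrophage genes (vertical axis) on every array, by stage (horizontal axis), with triangles for ESC, whole embryos and heart tubes, red circles for left and blue squares for right ventricles, and a grey line through the mean of the arrays of a stage. All 10 genes step up between E9.5 and E12.5 and again between D3 and the adult, Cd68 is also high in ESC, and Mrc1 has a separate peak at E8.5.

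C1qa, C1qb and C1qc encode the chains of C1q, which opens the classical complement pathway and tags synapses, debris and dying cells for uptake. C1qa (probe set 1417381_at) lay between 3.53 and 4.71 on all arrays up to E9.5, those of ESC included (3.97, 4.21 and 4.08). At E12.5 it was 7.22, 7.23 and 7.2 in the left and 7.38, 7.11 and 7.54 in the right ventricle, above every earlier array. In the adult it was 10.30, 9.98 and 10.22 in the left and 10.38, 10.83 and 10.38 in the right ventricle, above every array of D3 (7.99 to 8.32). C1qa thus rose by 3.00 ± 0.16 (SE) from E9.5 to E12.5, or 7.98-fold (limma adjusted p = 1.58e-12), and by 2.19 ± 0.16 from D3 to the adult, or 4.56-fold (adjusted p = 5.22e-11, n = 3 per stage). The SE comes from the limma fit, in which all stages share 1 estimate of a gene's spread.

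C1qc (1449401_at) followed the same course, from 3.90 to 4.80 on the arrays up to E9.5 to 6.33 to 6.76 at E12.5, 6.70 to 7.13 at D3 and 8.77 to 9.64 in the adult. It rose by 2.43 ± 0.13 at the step to E12.5 and by 2.25 ± 0.13 at the step to the adult (limma adjusted p = 1.98e-12 and 9.43e-13). C1qb was read from a probe set (1434366_x_at) that already stood at 5.41 to 5.63 in ESC and rose by 1.25 ± 0.14 and 1.93 ± 0.14 (adjusted p = 1.20e-07 and 2.37e-11). Its 2 other probe sets stood lower in ESC, with means of 3.84 and 2.84, and rose by 3.50 ± 0.16 and 3.52 ± 0.13 at the step to E12.5, so the size of the C1qb rise depends on the probe set while its direction does not. Between E12.5 and D3 the changes of these 3 genes per step ranged from -0.16 ± 0.13 for C1qc from E18.5 to D3 to 0.50 ± 0.16 for C1qa from E12.5 to E14.5, and only the last passed the test (adjusted p = 0.0413). That call was lost when any 1 of the 6 averaged replicates of these stages was left out, with differences of 0.442 to 0.544.

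Csf1r is the receptor for Csf1 and Il34 and the signal on which macrophages depend. It (1419872_at) was 5.40, 5.28 and 4.82 in ESC, 5.80, 7.62 and 5.08 at E7.5 and 5.93, 6.63 and 6.86 at E8.5, with E7.5 replicate 2 far above the others of its group, and 6.39 to 7.02 at E9.5. At E12.5 it was 9.74, 9.66 and 9.54 in the left and 9.49, 9.57 and 9.58 in the right ventricle. It rose by 2.90 ± 0.36 to E12.5 (7.47-fold, limma adjusted p = 6.96e-07), stayed between 8.69 and 10.20 up to D3, and rose by 1.74 ± 0.36 to 10.71 to 11.75 in the adult (adjusted p = 2.57e-04). Against ESC it was higher at E8.5 by 1.31 ± 0.36 and at E9.5 by 1.53 ± 0.36 (adjusted p = 0.00285 and 6.45e-04), but the 2 other Csf1r probe sets gave differences of -0.48 and 0.05 at E8.5 and of -0.15 and 0.19 at E9.5 and did not pass. All 3 probe sets passed in the upward direction at the steps to E12.5 and to the adult, by 0.41 to 2.90 and by 0.50 to 1.74.

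Mrc1, the mannose receptor CD206, takes up glycoproteins and marks resident macrophages, and it is also known in sinusoidal, lymphatic and other embryonic endothelium. It (1450430_at) was 4.61, 5.26 and 5.09 in ESC and 4.54, 4.30 and 3.89 at E7.5, then 7.0, 6.58 and 6.26 in the E8.5 heart tube. At E9.5 it was back at 4.97, 5.85 and 5.41 in the left and 4.30, 4.13 and 4.46 in the right ventricle, and at E12.5 all 6 arrays lay between 7.55 and 7.75. Mrc1 thus rose by 2.37 ± 0.16 to E8.5, fell by 1.76 ± 0.16 to E9.5 and rose by 2.77 ± 0.16 to E12.5 (limma adjusted p = 2.44e-11, 2.53e-08 and 7.77e-12). No other member had a peak of this kind. The E7.5 samples were whole embryos, those of E8.5 heart tubes and those of E9.5 ventricles, so tissue and stage cannot be told apart in it. From D3 (6.90 to 7.43) to the adult (8.46 to 9.45) it rose by 1.77 ± 0.16 (adjusted p = 3.19e-09).

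Lyz2 encodes lysozyme M, which breaks down bacterial walls and is made by macrophages and neutrophils. Its first rises came before E12.5. It (1423547_at) was 5.29, 4.58 and 4.39 in ESC, 5.26, 6.58 and 5.18 at E7.5, 6.84, 6.75 and 7.13 at E8.5, and at E9.5 9.59, 9.22 and 9.48 in the left and 7.71, 7.89 and 8.12 in the right ventricle. All arrays of E8.5 were above those of E7.5, and all of E9.5 above those of E8.5. The rises were 1.24 ± 0.27 to E8.5 (limma adjusted p = 4.70e-04), 1.76 ± 0.27 to E9.5 (adjusted p = 2.59e-05) and 1.67 ± 0.27 to E12.5, where the arrays lay at 9.88 to 10.71 (adjusted p = 2.21e-05). In the adult Lyz2 reached 12.10 to 12.99, by a rise of 2.55 ± 0.27 from D3 (5.87-fold, adjusted p = 2.38e-08). From its lowest to its highest stage mean, ESC to adult, it spanned 7.59 log2 units, the widest span of the 10 genes, while Aif1 spanned 2.90, the narrowest.

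Lyz1, the neighbouring gene for lysozyme P, is nearly identical to Lyz2, and reads of the probe sets named for each cannot be kept apart with certainty. Both Lyz1 probe sets of the type that may match several genes followed Lyz2 over the 45 arrays (r = 0.98 for each), and the brighter of them read 7.23 to 7.88 at E8.5 and 8.55 to 10.62 at E9.5. The other Lyz1 probe set stayed between 3.19 and 4.27 on every array. The values of Lyz2 and of those 2 Lyz1 probe sets may therefore hold signal of each other's gene, and the shares were not measured.

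Ctss, cathepsin S, cuts the invariant chain of class II molecules and degrades matrix. It (1448591_at) lay at 3.70 to 4.73 on the arrays up to E9.5 apart from E7.5 replicate 2, which read 6.43. At E12.5 it was 8.83, 8.66 and 8.77 in the left and 8.80, 8.75 and 9.11 in the right ventricle, and the rise of 4.42 ± 0.39 (21.4-fold, limma adjusted p = 5.81e-09) was the largest among the 10 genes at that step. It stayed at 8.75 to 9.66 up to D3 and reached 9.99 to 11.10 in the adult, a rise of 1.18 ± 0.39 (adjusted p = 0.0156). Without the arrays marked above for genes of another tissue that last rise was 1.1 and did not pass (adjusted p = 0.064).

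Cd68, macrosialin, is a glycoprotein of late endosomes and lysosomes. Its probe set (1449164_at) read 7.39, 7.22 and 7.2 in ESC, higher than on any embryonic or D3 array (3.68 to 6.41), and only the adult (7.57 to 8.35) lay above. It fell by 2.47 ± 0.20 from ESC to E7.5 (limma adjusted p = 4.12e-10), then rose by 1.5 ± 0.20 to E12.5 (adjusted p = 2.65e-06) and by 1.74 ± 0.20 from D3 to the adult (adjusted p = 1.32e-07). The stem cell line is therefore no floor for Cd68, and only the ventricle stages can be read as a course of it.

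Tyrobp, or DAP12, carries the signal of Trem2 and other receptors that lack a signalling tail. It (1450792_at) was 4.55 to 5.95 on the arrays up to E9.5, 7.60 to 7.87 at E12.5, 8.07 to 8.49 at D3 and 9.15 to 9.87 in the adult. The rises were 2.19 ± 0.21 to E12.5 and 1.13 ± 0.21 to the adult (limma adjusted p = 2.37e-08 and 9.67e-05). Aif1, or Iba1, binds actin at the membrane ruffles of macrophages. Its probe set (1418204_s_at) had the narrowest range, from 3.27 to 4.04 on the arrays up to E9.5, 5.35 to 5.58 at E12.5, 5.59 to 5.92 at D3 and 6.0 to 6.68 in the adult, with rises of 1.82 ± 0.09 and 0.57 ± 0.09 (adjusted p = 1.02e-12 and 2.27e-05). In both genes the step to E12.5 was the larger.

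Ordered by stage means, the adult was highest for all 10 genes. Below it, C1qa ran in the order D3, E18.5, E14.5 and E12.5, and of these neighbours only D3 and E18.5 overlapped in their averaged replicates. For Lyz2 and Mrc1 the second highest stage was E12.5, for Csf1r, Tyrobp and Aif1 it was E14.5, for Ctss and C1qc E18.5, and for Cd68 ESC. At the low end, neighbours overlapped in all of the genes: E9.5 with ESC for C1qa, C1qc, Ctss, Mrc1 and Aif1, and E7.5 with ESC for C1qa, Csf1r, Lyz2 and Tyrobp, among others.

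**Figure D2:**
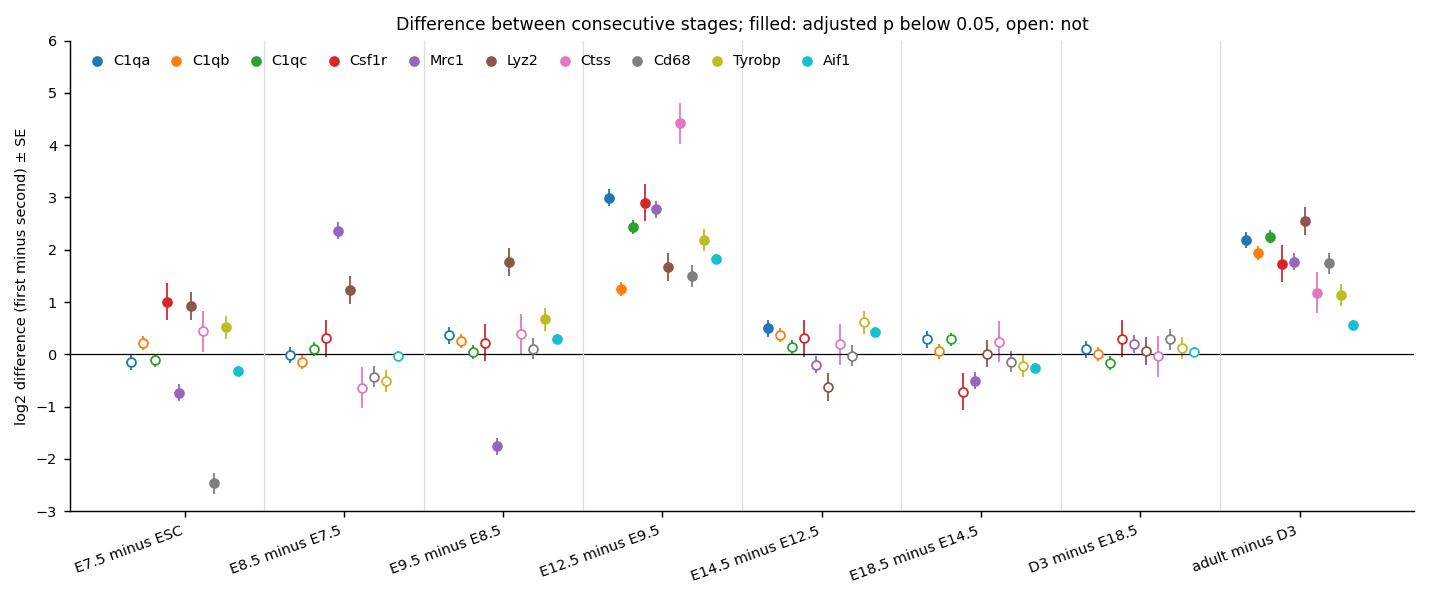
Log2 difference between each stage and the one before (vertical axis, ± SE of the limma fit, n = 3 averaged replicates per stage) for the 10 genes at 8 steps (horizontal axis), filled where the adjusted p was below 0.05. At the steps from E9.5 to E12.5 and from D3 to the adult all 10 points are filled and above 0, and from E18.5 to D3 all 10 are open.

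Between E9.5 and E12.5 all 10 genes rose. The share of all 18193 genes that rose at this step was 20.1%. The rises ran from 1.25 for C1qb to 4.42 for Ctss with a median of 2.31, against a median of 0.04 over all genes, and in each of the 10 genes all averaged replicates of E12.5 were above all of E9.5, as they were in 31.5% of all genes. Of all called genes 52.7% were higher, and 65.9% after scaling to housekeeping genes, which left all 10 called.

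Other macrophage genes rose at the same step. Of 26 measured genes of a macrophage identity list 19 rose and 0 fell, with Fcgr3, an Fc receptor, up by 2.44 ± 0.25 and Mpeg1, the pore protein perforin-2, up by 1.97 ± 0.19. Ptprc, the leukocyte antigen CD45, rose by 1.27 ± 0.19 and Adgre1, a surface receptor used to mark mouse macrophages, by 1.26 ± 0.18. Cx3cr1, the fractalkine receptor, rose by 1.15 ± 0.13 and Trem2, a partner of Tyrobp, by 0.55 ± 0.12. Spi1 differed by 0.24 ± 0.10 and did not pass (limma adjusted p = 0.061), and Ccr2, a receptor of blood monocytes, differed by 0.21 ± 0.12 (adjusted p = 0.16).

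Of 10 genes of resident macrophages 5 rose and 0 fell, led by F13a1, coagulation factor XIII A, with 3.73 ± 0.24, and by Gas6, a bridge between dying cells and their receptors, with 2.37 ± 0.11, while Timd4, Lyve1 and Cd163 differed by 0.22 ± 0.09, 0.82 ± 0.35 and 0.19 ± 0.11 and did not pass. Of 9 genes of monocytes and class II antigen presentation 0 rose and 1 fell (Plac8, by 3.81 ± 0.30). Of 21 genes of lysosomes and cathepsins 15 rose and 0 fell, Ctsk and Grn among them with 1.60 ± 0.25 and 1.37 ± 0.09. Of 16 complement genes other than C1q 5 rose and 1 fell, with Cfi up by 2.38 ± 0.21 and C3ar1, the C3a receptor, by 0.87 ± 0.13. Of 17 transcription factors of macrophages 3 rose and 1 fell, Maf by 2.61 ± 0.24 and Irf8 by 0.79 ± 0.14 upward.

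Markers of other cells moved at this step too. All 10 fibroblast genes rose, with a median of 3.24, 6 of 12 endothelial genes rose and 1 fell, and 2 of 11 neutrophil genes rose. The mean of the neutrophil list was 4.30 to 4.59 on the arrays of E9.5 and 4.52 to 5.06 on those of E12.5, and that of the fibroblast list 7.38 to 7.87 and 10.22 to 11.10. The part of these cells in the rise of the 10 genes was not tested.

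After E12.5 fewer of the genes passed the test at each step before birth. From E12.5 to E14.5, 2 of the 10 rose, C1qa by 0.50 ± 0.16 and Aif1 by 0.43 ± 0.09 (limma adjusted p = 0.0413 and 0.00352), where 7.18% of all genes rose. Of all called genes 54.1% were higher, and 66.4% after scaling to housekeeping genes. Fitting these stages alone gave 7 calls, of which Lyz2 (-0.63) and Mrc1 (-0.20) were lower, and each replicate left out gave 1. From E14.5 to E18.5, 2 fell, Mrc1 by 0.50 ± 0.16 and Aif1 by 0.26 ± 0.09 (adjusted p = 0.0221 and 0.0410), where 18.7% of all genes fell and 38.7% of the called genes were higher (55.8% after scaling to housekeeping genes). That scaling ended both calls, with -0.43 for Mrc1 and -0.18 for Aif1, and C1qc passed as higher (0.36). Both falls were also lost without E14.5 replicate 2 (0 calls), E14.5 replicate 3 (0) or E18.5 replicate 1 (0), and Aif1 without E18.5 replicate 2 (-0.29) or 3 (-0.22), while without E18.5 replicate 3 C1qc passed as higher (0.39). In fits of 1 ventricle, Mrc1 changed by -0.94 in the left and by -0.07 in the right, where it did not pass, and Aif1 by 0.08 in the left, where it did not pass, and by -0.60 in the right. Lyz2 changed by 0.97 in the left and by -0.94 in the right, and C1qa and C1qc passed as higher in the left (0.63 and 0.58) and differed by -0.06 and -0.02 in the right. Csf1r differed by -0.71 ± 0.36 over both ventricles at this step, and Lyz2 by -0.63 ± 0.27 at the step before, neither past the threshold (limma adjusted p = 0.14 and 0.13). The spread of Csf1r shared by all stages includes E7.5 replicate 2, which read far above its group. Fitting E14.5 and E18.5 alone called Csf1r lower (limma adjusted p = 2.52e-04), with averaged replicates of 9.91, 9.88 and 9.91 against 9.34, 9.18 and 9.05. That fit also called C1qa (0.29) and Ctss (0.24) higher.

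At that step neutrophil genes rose in 7 of 11 cases, where 11.8% of all genes rose, S100a9 by 2.69 ± 0.32 and Ngp by 1.86 ± 0.18. Ptprc rose by 1.31 ± 0.19 and Cd163, a scavenger receptor for haemoglobin, by 0.61 ± 0.11, while Adgre1 fell by 0.55 ± 0.18. The neutrophil mean was 4.84 to 5.80 at E14.5 and 5.39 to 7.29 at E18.5.

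From E18.5 to D3, 0 of the 10 genes passed the test in limma, and 0 had an unadjusted p under 0.05, where 20.2% of all genes passed. The differences ran from -0.16 for C1qc to 0.30 for Csf1r, and their 95% intervals from -0.85 to 1.03. Fitting these stages alone called 3 of them, Cd68 (0.28), Csf1r (0.30) and Mrc1 (0.20). Within single ventricles C1qc was lower by 0.63 in the left, and C1qa and Aif1 were higher by 0.56 and 0.41 in the right.

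Between D3 and the adult all 10 genes rose again, where 22.3% of all genes rose. The rises ran from 0.57 for Aif1 to 2.55 for Lyz2 with a median of 1.75, against a median of 0.03 over all genes, and in each of the 10 the averaged replicates of the adult were above all of D3, as they were in 28.7% of all genes. With levels set against housekeeping genes, the median over all genes shifted by 0.17 and the share of higher among called genes from 45.8% to 68.4%, and left all 10 called. Set against E12.5, the adult was higher in all 10 genes as well, by 0.79 for Aif1 to 3.07 for C1qa, where 34.4% of all genes were higher. Of the genes called there 51.3% were higher, and 71.1% after that scaling (median shift 0.30).

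Other macrophage genes rose at this last step as well. Of the 26 macrophage identity genes 22 rose and 0 fell, led by Cd163 with 3.93 ± 0.11, from 3.51 to 4.03 on the arrays of D3 to 7.14 to 8.08 on those of the adult, and Gpr34 with 2.01 ± 0.15. Of the 10 resident macrophage genes 8 rose, Cbr2 by 4.18 ± 0.20, Folr2, a folate receptor, by 2.07 ± 0.16, Lyve1 by 1.29 ± 0.35 and Timd4 by 1.03 ± 0.09, and 1 fell. Of the 9 genes of monocytes and class II 7 rose, H2-Aa by 4.64 ± 0.19, H2-Ab1 by 1.98 ± 0.17 and Cd74 by 1.58 ± 0.16, all parts of class II presentation, and 1 fell (Plac8, by 1.38 ± 0.30). Ccr2 differed by -0.14 ± 0.12 and Cx3cr1 by 0.07 ± 0.13, and neither passed (limma adjusted p = 0.35 and 0.69).

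Csf1, a ligand of Csf1r, rose by 1.39 ± 0.11, as did 8 others of 15 growth factors and chemokines, among them Ccl6 by 2.56 ± 0.21 and Ccl8 by 1.83 ± 0.20. Il34, the second ligand, differed by 0.07 ± 0.13 and did not pass (limma adjusted p = 0.67). Of 16 complement genes 6 rose and 1 fell, with C1s1 and C1ra, the proteases that join C1q in the C1 complex, up by 3.63 ± 0.16 and 3.06 ± 0.21, and the inhibitor Serping1 up by 2.39 ± 0.17. Of 21 lysosomal genes 12 rose and 5 fell, where 4066 of all 18193 genes rose and 4806 fell. Spi1 differed by 0.19 ± 0.10 (adjusted p = 0.13).

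Neutrophil genes went the other way in 5 of 11 cases, where 4806 of all 18193 genes fell, and 3 rose. S100a9 was down by 2.32 ± 0.32 and Ngp by 1.31 ± 0.18. Their mean was 5.72 to 5.88 at D3 and 5.19 to 5.40 in the adult. Of 5 adipocyte genes 4 rose, and their mean ran from 4.77 to 7.99 over the adult arrays. Adult right replicate 2, the highest of these, also stood above its group mean in 10 of the 10 macrophage genes. Without the marked arrays, this one included, 9 of the 10 genes rose.

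**Figure D3:**
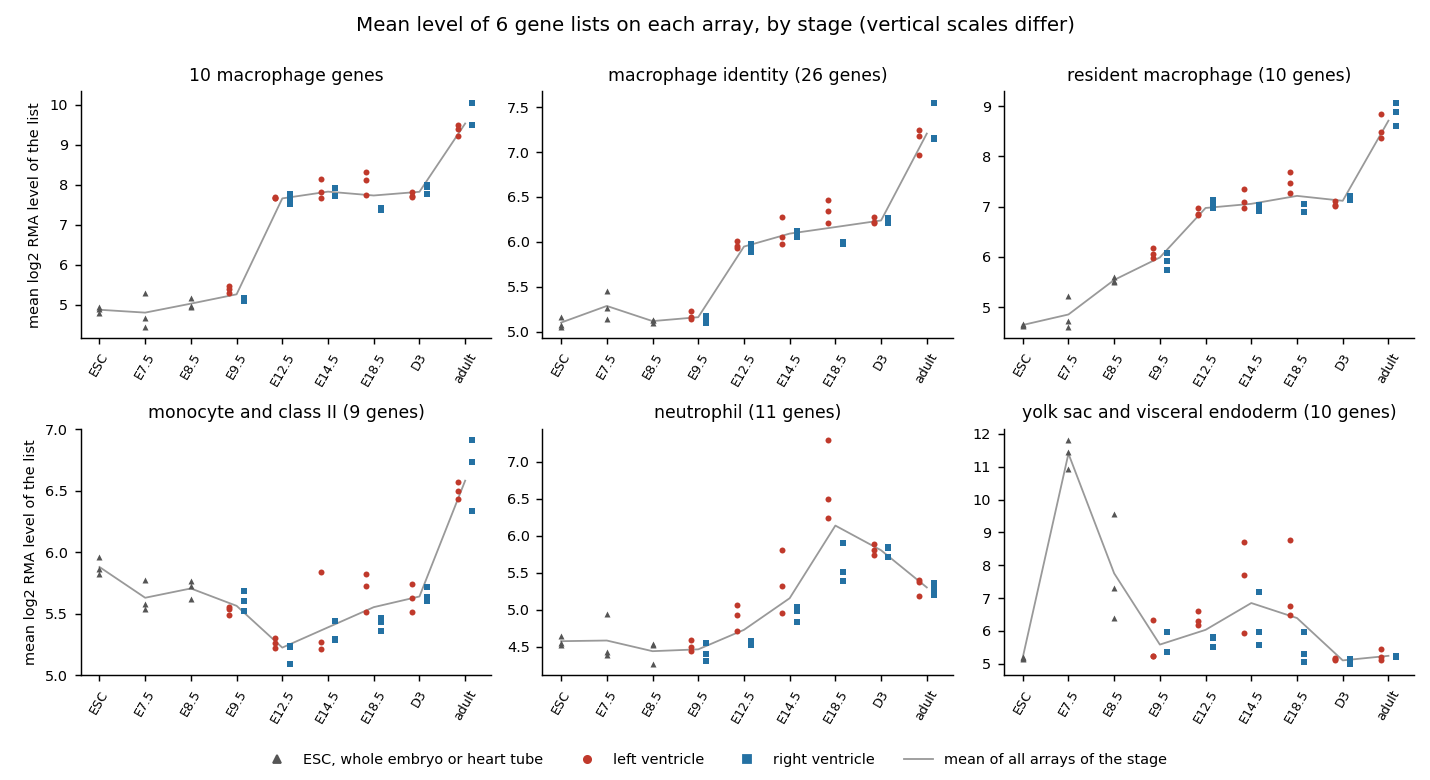
Mean log2 RMA level of 6 gene lists (vertical axes, of differing scale) on every array, by stage, with symbols and line as in the plot of single genes. The macrophage lists step up at E12.5 and in the adult, the monocyte and class II list in the adult, the neutrophil list is highest on left ventricle arrays of E18.5, and the yolk sac list is highest in E7.5 embryos and stands high on single later arrays.

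Before E12.5, 5 of the 10 genes differed from the stem cell line at E8.5 and 5 at E9.5. At E8.5, 3 of the 10 were higher than in ESC (Lyz2 by 2.15, Mrc1 by 1.63, Csf1r by 1.31) and 2 lower (Cd68 by -2.90, Aif1 by -0.36), where 60.7% of all genes differed. At E9.5, 4 were higher (Lyz2 by 3.92, Csf1r by 1.53, Tyrobp by 0.67, C1qb by 0.33) and 1 lower (Cd68 by -2.79), where 60.9% of all genes differed. Of all genes called at E8.5 against ESC 43.7% were higher, and 54.8% after scaling to housekeeping genes (median shift 0.11). At E9.5 C1qb was lost without ESC replicate 1 (0.31) or 2 (0.28) or E9.5 replicate 1 (0.34) or 3 (0.25). It was also lost with the C1qb probe set of largest SD (0.251), the mean of its probe sets (0.207) and left ventricles alone (0.255). The fit of 45 arrays as 15 groups did not call it either. Tyrobp was lost without ESC replicate 3 (0.55) or E9.5 replicate 3 (0.52), while C1qa passed without E9.5 replicate 1 (0.42). On all arrays C1qa, C1qc and Ctss did not pass at either stage, with differences of -0.20 to 0.20. These shares of the members were below those of all genes.

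From ESC to E7.5, 3 genes were higher (Csf1r by 1.00, Lyz2 by 0.92, Tyrobp by 0.52) and 3 lower (Cd68 by -2.47, Mrc1 by -0.74, Aif1 by -0.33), where 49.4% of all genes differed. The higher readings rested on E7.5 replicate 2: without it Csf1r differed by 0.28, Lyz2 by 0.46 and Tyrobp by 0.34, none past the threshold, and Ctss turned from 0.44 to -0.45 (limma adjusted p = 0.00851). That array also held the high trophoblast, decidua and red cell genes given above, whose part in these values was not tested. Aif1 was lost without ESC replicate 2 (-0.23) and Tyrobp also without ESC replicate 1 (0.47), ESC replicate 3 (0.40) or E7.5 replicate 1 (0.51), and Csf1r without ESC replicate 3 (0.83).

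From E7.5 to E8.5, 2 genes rose, Mrc1 and Lyz2, where 20.4% of all genes rose. Without E7.5 replicate 3 there were 4 calls, with Ctss (-1.05) and Tyrobp (-0.70) lower as well. Single genes also passed without E7.5 replicate 1 (Ctss, -1.13), E7.5 replicate 2 (Csf1r, 1.03), E8.5 replicate 2 (Cd68, -0.75) or E8.5 replicate 3 (Tyrobp, -0.81). Around Mrc1 at E8.5, all 12 endothelial genes rose, as did Lyve1 by 2.14 ± 0.35 and Stab1 by 1.91 ± 0.13, receptors that both macrophages and endothelium carry. Ptprc and Adgre1 differed by -0.09 ± 0.19 and -0.03 ± 0.18 and did not pass (limma adjusted p = 0.72 and 0.90). Of the 26 macrophage identity genes 1 rose and 5 fell, where 3719 of all 18193 genes rose and 5120 fell. The part of endothelial or other cells in the Mrc1 level at E8.5 was not tested. E8.5 replicate 2, the array with high visceral endoderm genes, was the middle one of the 3 Mrc1 values.

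From E8.5 to E9.5, 3 genes rose (Lyz2 by 1.76, Tyrobp by 0.67, Aif1 by 0.30) and Mrc1 fell, where 26.9% of all genes changed. Tyrobp was lost without E8.5 replicate 1 or 2 or E9.5 replicate 1 or 3 (0.49 to 0.60), and Aif1 without E8.5 replicate 3 or E9.5 replicate 1 or 2 (0.23 to 0.30), and C1qa passed without E8.5 replicate 2 (0.52) or E9.5 replicate 1 (0.58). With left ventricles alone Aif1 differed by 0.11 and did not pass, against 0.49 with right ventricles alone, and Tyrobp did not pass with right ventricles alone (0.61, limma adjusted p = 0.088) or without the marked arrays (0.49, adjusted p = 0.15). Beside Lyz2, the platelet factor Pf4, here on the resident macrophage list, rose by 3.29 ± 0.22. Ppbp of a platelet list rose by 2.91 ± 0.26 and the granule enzyme Mpo of the neutrophil list by 1.02 ± 0.19. Ptprc differed by 0.07 ± 0.19 (limma adjusted p = 0.83). These are single genes and do not stand for their lists, and the part of other cells in the Lyz2 rise was not tested. Ptprc read 3.45 to 4.06 at E9.5 and 3.09 to 3.81 in ESC. Of the 26 macrophage identity genes 2 rose and 2 fell.

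Left and right ventricles were compared from E9.5 on, in a fit of all 45 arrays. At E9.5 Lyz2 was higher in the left ventricle by 1.52 ± 0.27 (2.87-fold, limma adjusted p = 2.39e-04) and Mrc1 by 1.11 ± 0.21 (2.16-fold, adjusted p = 5.15e-04), where 2.00% of all genes were called higher on the left. The values by array, given above, did not overlap between the ventricles in either gene. The other 8 genes did not pass, with differences of -0.38 for Aif1 to 0.24 for C1qa, and both calls held when any 1 of the 6 arrays was left out. The Lyz1 probe set used, which may match Lyz2 as well, was higher by 1.62 ± 0.42 (limma adjusted p = 0.021). The Lyz1 probe set not of that type read means of 3.67 in the left and 3.52 in the right ventricle. Ptprc differed by -0.13 ± 0.27, Adgre1 by 0.01 ± 0.20 and Lyve1 by 0.72 ± 0.32, none past the threshold. None of the macrophage identity and resident macrophage genes was called at E9.5.

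**Figure D4:**
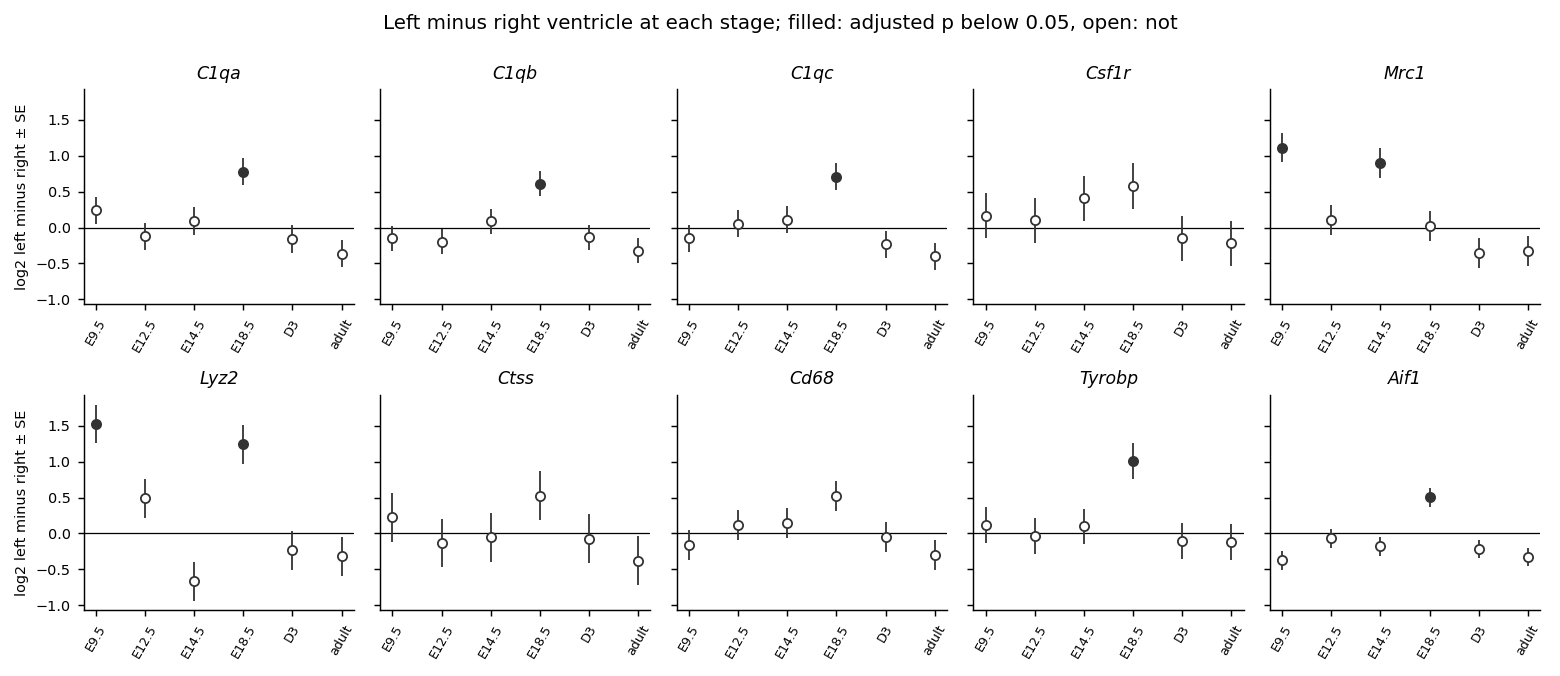
Log2 difference of left minus right ventricle (vertical axis, ± SE of the limma fit, n = 3 arrays per ventricle) at 6 stages (horizontal axis) for the 10 genes, filled where the adjusted p was below 0.05. Lyz2 and Mrc1 are higher on the left at E9.5, Mrc1 at E14.5, and 6 genes at E18.5, while at D3 and in the adult all 10 differences are below 0 and open.

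At E12.5, 0 of the 10 genes passed in limma and 0 had an unadjusted p under 0.05, where 1.26% of all genes passed. Differences ran from -0.20 for C1qb to 0.49 for Lyz2. At E14.5 only Mrc1 passed, with 7.66, 8.15 and 7.82 in the left and 7.13, 6.75 and 7.06 in the right ventricle, higher on the left by 0.89 ± 0.21 (limma adjusted p = 0.00608), where 4.24% of all genes were called higher on the left. Without left replicate 2, the array with high liver-type and red cell genes, the difference was 0.76 and did not pass (adjusted p = 0.068). Lyz2 was higher on the right at that stage, by -0.67 ± 0.27 as left minus right, and did not pass.

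At E18.5, 6 of the 10 genes were higher in the left ventricle, where 2.84% of all genes were. Lyz2 was 10.67, 10.62 and 9.76 in the left and 9.15, 9.14 and 9.04 in the right ventricle. Tyrobp was 9.04, 8.82 and 8.05 against 7.49, 7.67 and 7.73, and C1qa was 8.78, 8.52 and 8.06 against 7.71, 7.58 and 7.74. In 9 of the 10 genes, all but Mrc1, every left array lay above every right array, as in 10.2% of all genes, and left replicate 3 stood below its group mean in all 10. The differences that passed were 1.24 ± 0.27 for Lyz2, 1.01 ± 0.25 for Tyrobp, 0.78 ± 0.19 for C1qa, 0.71 ± 0.19 for C1qc, 0.61 ± 0.17 for C1qb and 0.50 ± 0.13 for Aif1 (limma adjusted p from 0.00516 to 0.0343). Csf1r, Ctss and Cd68 differed by 0.58 ± 0.32, 0.53 ± 0.34 and 0.52 ± 0.21 and Mrc1 by 0.02 ± 0.21, none past the threshold.

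The number of calls at E18.5 hung on single arrays. It was 1 without left replicate 1, 0 without left replicate 2, 6 without left replicate 3, and 1, 1 and 4 without right replicates 1, 2 and 3. Fitting the 2 E18.5 groups alone gave 0 calls, and leaving out the marked arrays gave 2. The direction changed in no gene but Mrc1, whose difference ran from -0.07 to 0.08 over the settings. Without left replicate 2 Lyz2 differed by 1.11 and Tyrobp by 0.91, and without left replicate 1 C1qb, C1qc and C1qa differed by 0.41, 0.49 and 0.62.

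Genes of several other cell types were higher in the same left ventricles. Of 11 neutrophil genes 6 were called, with list means of 6.50, 7.29 and 6.23 on the left and 5.90, 5.51 and 5.39 on the right, and S100a9 was higher by 2.13 ± 0.43. Of 10 yolk sac and visceral endoderm genes 4 were called, with means of 6.76, 8.76 and 6.48 against 5.98, 5.31 and 5.06, and the liver protein Alb was higher by 4.54 ± 0.82. Of 7 mast cell genes 3 were called, Cma1 by 2.34 ± 0.34, and of 11 lymphocyte genes 3, Cd3g by 1.79 ± 0.40. Ptprc was higher by 1.3 ± 0.27, as were 7 of the 26 macrophage identity genes, 5 of the 10 resident macrophage genes (Folr2 by 0.96 ± 0.19) and 5 of 16 complement genes. The part of these cells in the left-right difference of the 10 genes was not tested.

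At D3 and in the adult 0 of the 10 genes passed in limma, where 0.00550% and 0.0165% of all genes did, and 0 and 2 of them had an unadjusted p under 0.05 (C1qc and Aif1 in the adult). All 10 differences were below 0 at both stages, from -0.36 to -0.05 at D3 and from -0.40 to -0.12 in the adult, that is, higher on the right. Adult right replicate 2 was the highest of its 3 in every gene but Aif1. Averaged over the 6 stages, 0 of the 10 passed (limma, 2.97% of all genes, 3 with an unadjusted p under 0.05), and the largest difference was that of Lyz2 with 0.34 ± 0.11 (adjusted p = 0.087). That difference passed without E18.5 left replicate 3 (0.39) or adult right replicate 2 (0.38). The F-test of whether the left-right difference depends on the stage called 3 of the 10, Lyz2, Mrc1 and Aif1 (adjusted p = 3.09e-04, 0.00152 and 0.0130), where 5.85% of all genes were called.

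Across the 15 group means the 10 genes ran together, with a median correlation of 0.91 over the 45 pairs of genes (range 0.46 to 0.99). The closest pair was C1qa with C1qc, and the loosest was Lyz2 with Cd68, which reached 0.91 over the 12 ventricle groups without ESC, E7.5 and E8.5. These points share the stages, and the same pairs had a median of 0.30 over the deviations of 45 arrays from their group means (range -0.08 to 0.82). The highest was Csf1r with Ctss, which both read far above their group on E7.5 replicate 2 (7.62 and 6.43). That array had the largest mean deviation of the members (0.48), and correlations over the deviations were not computed without it. The 10 genes whose group means were most like the mean of the members, among 5229 genes spanning at least 2 log2 units, were Fcer1g, P2ry6, Ifi27, F13a1, Mpeg1, Ms4a6c, Itm2b, Tcp11l2, Osmr and Ly86, with correlations of 0.97 to 0.995 over 15 means. Fcer1g encodes the common Fc receptor gamma chain, and went from 6.10 at E9.5 to 7.32 at E12.5 and 8.54 in the adult. Over the 45 deviations, which hold no stage, Ly86, Lpar1, Ms4a6b, Ifi27, Apoe, Acp5, Ccl9, Ptgr1, Sfxn1 and Ms4a6d came highest, with correlations of 0.71 to 0.78, and Ly86 and Ifi27 were in both sets.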

How the data were processed

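The authors used RMA, per the submitters' processing notes, and the deposited table gives its output on a log2 scale for each probe set; the version is not given in the sources used here. RMA fits all arrays to one distribution (array medians were 5.35 to 5.47), which hides any shift common to most genes, and it compresses differences near background. No detection calls were used. Of 45101 probe sets, 34945 carried 1 symbol in the platform annotation and 932 several; 9010 of 18193 genes had more than 1, and the one with the highest mean was taken. Of 302 genes in 23 lists, 271 were matched, and the rest were not analysed here.

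Tests used limma 3.58.1 in R 4.3.3 (lmFit, eBayes, two-sided), with Benjamini-Hochberg adjustment over all 18193 genes and a threshold of 0.05. Stages were fitted on 27 values after the left and right array of a number were averaged (18 residual degrees of freedom), ventricles on 45 arrays as 15 groups (30), and the F-test had 5. All 19 comparisons share these fits, and steps share their middle stage. The labels call the replicates biological. Code was tested on simulated data. Tables and plots used Python 3.11.15, pandas 2.3.3, NumPy 2.4.6 and Matplotlib 3.10.9.

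The members and lists were chosen with earlier results of these data known. The text names all members, 14 genes fixed by name, up to 4 called genes with the largest differences per list and step, and the 10 genes most like the members by each measure. Alternatives were another eBayes, a filter on dim genes, other probe sets, housekeeping scaling, fits of the compared groups or of 1 ventricle, arrays left out, a stricter threshold and a replicate block. Arrays were marked where a list of another tissue stood over 1.5 log2 units above the other replicates. A lower limit of 0.9 was added after the data were seen. In the stage fit the whole averaged value was left out, and with it the other ventricle of that number. Left and right ventricles of a number may come from the same hearts, so they were averaged for the stage fit. The main left-right fit did not pair them at any stage, and the replicate block did. Same-numbered ventricles correlated in their deviations above 0.1 in all 3 pairs at E12.5 (0.27, 0.32 and 0.37 over all genes) and at no other stage. At E9.5 the values were 0.26, 0.32 and 0.07. These correlations come from the data, not the labels.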

Additional observations from a re-analysis of the deposited data

Results flagged for a closer look

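For 3 of the 10 genes the left-right difference changed with the stage, by the limma F-test over 6 stages. The adjusted p was 0.000309 for Lyz2, which was higher on the left by 1.52 at E9.5 and by 1.24 at E18.5 and read -0.67 as left minus right at E14.5. It was 0.00152 for Mrc1, higher on the left by 1.11 at E9.5 and 0.89 at E14.5 and differing by 0.02 at E18.5. It was 0.013 for Aif1, which read -0.38 at E9.5 and 0.50 at E18.5; this call was lost without E18.5 left replicate 1 (0.065), E18.5 left replicate 2 (0.067) or E18.5 right replicate 1 (0.057), without the marked arrays (0.060) or those marked at the lower limit (0.119), and with the replicate block (0.079).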

How the results depend on the processing

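All 10 genes were called higher from E9.5 to E12.5 and from E12.5 to the adult under every alternative run, and 9 or 10 from D3 to the adult. Over all members, comparisons and alternative settings, 3751 results kept their side of the threshold, 140 lost the call, 75 gained one and 4 reversed. A change of sign was counted as a reversal only where the main or the alternative result was called. The reversals were Ctss from ESC to E7.5 (-0.445 without E7.5 replicate 2 and also without the arrays marked at the lower limit, with 0.922 as the highest value when other replicates were left out), Aif1 from E14.5 to E18.5 in left ventricles (0.081) and Lyz2 at that step in right ventricles (-0.940). Counts of called members moved as follows. Fitting only the groups compared gave 2 from ESC to E7.5, 2 from E8.5 to E9.5 and 7 from E12.5 to E14.5 (Lyz2 and Mrc1 lower). It gave 5 from E14.5 to E18.5 (C1qa and Ctss higher, the others lower) and 3 from E18.5 to D3. For left against right it gave 1 at E12.5, 0 at E18.5 and 1 for the mean of the stages. An adjusted p of 0.01 gave 2 from E8.5 to E9.5, 1 from E12.5 to E14.5, 0 from E14.5 to E18.5 and 1 for left against right at E18.5. Leaving out the marked arrays gave 1 from E12.5 to E14.5, 0 from E14.5 to E18.5, and for left against right 0 at E14.5 and 2 at E18.5. The lower limit gave 4 from E7.5 to E8.5, 0 from E12.5 to E14.5, 0 from E14.5 to E18.5, 0 for left against right at E14.5 and 2 for the mean of the stages; it leaves 1 averaged value at E14.5, assumed to vary like the other stages. Left ventricles alone gave 1, 4 and 1 and right ventricles alone 1, 2 and 2 calls from E12.5 to E14.5, E14.5 to E18.5 and E18.5 to D3. All 45 arrays as samples gave 5 from E12.5 to E14.5, and from E14.5 to E18.5 a trended robust eBayes gave 1 (Mrc1, lower) and housekeeping scaling 1 (C1qc, higher). Leaving out 1 replicate at a time gave 2 to 4 from E7.5 to E8.5, 1 from E12.5 to E14.5, 0 to 2 from E14.5 to E18.5, 3 to 5 at E9.5 against ESC, 0 to 1 for left against right at E14.5, 0 to 6 at E18.5, 0 to 1 for the mean of the stages and 2 to 7 for the F-test (7 without E18.5 left replicate 3). With the replicate number as a block there were 5 calls from ESC to E7.5, and for left against right 2 at E14.5, 4 at E18.5, 1 for the mean of the stages and 2 in the F-test. Where the construction of a setting (fewer samples, a stricter threshold) does not give the cause, the cause was not tested. The arrays carry no detection calls, so levels near those of ESC have no measured floor, and 3 arrays per group limit the precision.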
